A study of Mus musculus with 12 samples.

Results

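The immunoglobulin heavy-chain variable (Ighv) segments were examined in RNA-seq data of the immune cell fraction of mouse liver. A gene was a member if its name in the expression tables began with Ighv. The tables listed 183 such segments among 40840 genes, and RefSeq (GRCm38.p6) typed 120 of them as variable segments and 63 as variable segment pseudogenes. The series held 12 libraries of total RNA, of which 11 were used (5 on NCD, 6 on HFD). Earlier results from the same files had shown 4 of these segments (Ighv1-62-2, Ighv14-1, Ighv5-9-1 and Ighv2-9-1) among the genes lowest on HFD in WT mice. The members were thus chosen by values of WT mice on both diets, and these values are given as a description.

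The mice were wild type (WT, labelled strain C57BL/6) or caspase-11 deficient (Casp11-/-, labelled B6.129S4(D2)-Casp4tm1Yuan/J). From an age of 8 to 10 weeks, male mice stayed on normal chow diet (NCD) or were switched to high-fat diet (HFD) for 12 weeks. Each of the 4 combinations of genotype and diet had 3 libraries. The caspase-11 deficiency is a germline allele, and the methods call the mice age-matched without calling the WT mice littermates. The labels name the samples hepatic macrophages, whereas the study's methods describe a Percoll fraction of liver immune cells, which can hold other leukocytes. The labels number the libraries of a group without stating that each came from its own mouse, so p-values measure the spread between these libraries.

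An Ighv segment carries most of the variable domain of an antibody heavy chain. In a developing B cell, recombination joins 1 Ighv segment to a D and a J segment, and the joined exon is transcribed together with a constant region such as Ighm or Igha. Mature B cells make moderate amounts of this RNA, and plasma cells, which secrete antibody, make very large amounts. Segments are sorted into numbered subgroups by sequence similarity, and the first number in a name is the subgroup (Ighv1-26 belongs to subgroup 1). A bulk level of an Ighv segment therefore adds up B lineage cells that chose this segment, and fewer such cells cannot be told apart from less RNA per cell.

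The 3′ ends of the 10 segments with the highest mean value on NCD are shown because single-end reads of 75 bases must separate sequences as similar as these. Each line gives the last 90 bases of the coding V exon from GENCODE vM21 transcripts (GRCm38, minus strand, 5′ to 3′). Capitals mark the letters TANTNCTGT, which in this frame encode the conserved cysteine before the junction with the D segment and the residues ahead of it.
Ighv1-26: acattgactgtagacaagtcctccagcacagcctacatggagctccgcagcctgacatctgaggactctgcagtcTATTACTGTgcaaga
Ighv1-81: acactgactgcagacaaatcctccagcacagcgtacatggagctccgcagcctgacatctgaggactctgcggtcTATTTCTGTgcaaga
Ighv2-2: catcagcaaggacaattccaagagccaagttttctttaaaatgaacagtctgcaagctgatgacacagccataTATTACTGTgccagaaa
Ighv1-76: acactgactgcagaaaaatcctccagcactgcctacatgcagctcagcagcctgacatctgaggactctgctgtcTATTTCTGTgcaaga
Ighv3-6: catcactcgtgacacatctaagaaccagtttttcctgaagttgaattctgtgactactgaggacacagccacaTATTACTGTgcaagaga
Ighv1-9: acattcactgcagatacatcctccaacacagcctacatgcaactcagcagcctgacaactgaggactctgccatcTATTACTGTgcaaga
Ighv9-3: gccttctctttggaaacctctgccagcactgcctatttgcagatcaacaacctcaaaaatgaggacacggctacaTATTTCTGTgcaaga
Ighv1-80: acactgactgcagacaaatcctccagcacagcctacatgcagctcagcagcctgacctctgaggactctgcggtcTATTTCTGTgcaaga
Ighv8-12: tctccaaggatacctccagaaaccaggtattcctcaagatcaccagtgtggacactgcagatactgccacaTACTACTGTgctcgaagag
Ighv1-15: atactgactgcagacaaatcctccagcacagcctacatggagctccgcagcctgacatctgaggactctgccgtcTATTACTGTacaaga
These stretches are the ends of the V exons of Ighv1-26 (chr12:114788372-114788461), Ighv1-81 (chr12:115920279-115920368), Ighv2-2 (chr12:113588267-113588356), Ighv1-76 (chr12:115847881-115847970), Ighv3-6 (chr12:114288152-114288241), Ighv1-9 (chr12:114583569-114583658), Ighv9-3 (chr12:114140692-114140781), Ighv1-80 (chr12:115912344-115912433), Ighv8-12 (chr12:115647945-115648034) and Ighv1-15 (chr12:114657353-114657442).

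These letters were found in the transcript sense of 137 of the 183 segments (74.9%), in 108 of the 120 variable segments and in 29 of the 63 pseudogenes, and on the opposite strand of 1. Over the 75 bases that end with them, segments of the same subgroup were 85.3% to 96.0% identical (15 pairs), against 49.3% to 72.0% between subgroups (30 pairs). Of all windows of 75 bases in a segment, a median of 98.9% occurred in no other annotated transcript, and 88 segments had only such windows. In 4 segments (Ighv1-71, Ighv1-62-2, Ighv1-72 and Ighv1-62-3) fewer than 50% of the windows were their own. The last 300 bases of Ighv1-62-2 (chromosome 12, 115446409 to 115446708) and Ighv1-71 (115742205 to 115742504) had 0 differences, and the shared sequence is shown since reads from this part cannot be assigned to either.
Ighv1-62-2 and Ighv1-71: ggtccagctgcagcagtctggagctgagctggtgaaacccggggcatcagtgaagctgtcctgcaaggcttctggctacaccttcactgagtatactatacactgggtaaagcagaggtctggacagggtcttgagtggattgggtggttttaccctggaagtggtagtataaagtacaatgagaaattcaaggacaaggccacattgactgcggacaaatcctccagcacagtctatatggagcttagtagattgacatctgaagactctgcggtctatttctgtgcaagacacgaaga
Ighv1-71 was at the lowest deposited value in all 11 libraries and Ighv1-62-2 was not, so the value listed for Ighv1-62-2 may hold reads of both.

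The deposited values are TPM, which scale the reads of a gene to its length and each library to a common total, with low values raised to a floor of 1.01. WT-NCD replicate 3 was left out because its values were those of a library without reads, as described in the closing section. In the other libraries the values stepped by whole reads, which gave totals of 1782506 to 11822055 reads and 147 to 21528 Ighv reads per library. A read in a segment of 294 bases, the commonest length, was worth 0.287 to 1.34 TPM. The floor thus hid at most 3 reads of such a segment and could hide more of a longer one. The abundant small nucleolar RNA U3 took 1.27% to 4.98% of TPM on NCD and 26.5% to 60.1% on HFD. In this unit a larger share of 1 RNA leaves a smaller share to all others together. Protein-coding genes held 21.9% to 42.4% of TPM on NCD and 14.9% to 24.8% on HFD, and the part of U3 in this was not tested. Casp4, which encodes caspase-11, was at 5.60 to 15.6 TPM in WT libraries and 2.56 to 15.2 TPM in Casp11-/- libraries. The libraries labelled Casp11-/- NCD replicate 3 (15.2 TPM) and Casp11-/- HFD replicate 2 (8.68 TPM) lay within the WT range. The file of the latter carries a header whose group prefix lacks a digit of the label and is that of no other group.

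The Ighv segments were abundant on NCD and scarce on HFD. Their summed value, with segments at the floor counted as 0, was 7119 and 7385 TPM in the WT-NCD libraries and 268, 203 and 408 TPM in WT-HFD replicates 1 to 3. In Casp11-/- mice it was 5987, 567 and 1250 TPM in NCD replicates 1 to 3 and 220, 172 and 136 TPM in HFD replicates 1 to 3. Every NCD library was above every HFD library within its genotype, and the Casp11-/- NCD group was split, with replicate 1 near the WT-NCD libraries and replicates 2 and 3 between the diets.

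As a share of all TPM, the sum was 0.730% ± 0.0188 (SD, n = 2) in WT-NCD and 0.0295% ± 0.0106 (n = 3) in WT-HFD, a ratio of 24.7. In Casp11-/- mice it was 0.262% ± 0.297 (n = 3) on NCD and 0.0177% ± 0.00427 (n = 3) on HFD, a ratio of 14.7, which was 5.15 without Casp11-/- NCD replicate 1. Without the libraries labelled Casp11-/- NCD replicate 3 and HFD replicate 2, the ratio was 18.4. No p-value is given for the sum, since it is a score over members chosen with results known.

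The ratios were smaller when the U3 RNA was left out of the total. Against protein-coding TPM alone, the Ighv share was 2.12% and 1.97% in WT-NCD and 0.112%, 0.137% and 0.165% in WT-HFD replicates 1 to 3, a ratio of 14.8 between the means. In Casp11-/- libraries it was 1.64%, 0.261% and 0.296% in NCD replicates 1 to 3 and 0.119%, 0.0757% and 0.0609% in HFD replicates 1 to 3, a ratio of 8.61 (3.27 without Casp11-/- NCD replicate 1). With U3 and 7SL RNAs taken out of the total, the ratios were 13.2 in WT and 7.38 in Casp11-/- mice (2.78 without Casp11-/- NCD replicate 1). The diets remained separate within each genotype in these units, as they did in recovered reads.

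In recovered reads, the Ighv segments held 1883 and 1821 RPM (reads scaled by the total of each library) in WT-NCD and 82.9, 88.4 and 125 in WT-HFD replicates 1 to 3. They held 1457, 200 and 228 RPM in Casp11-/- NCD replicates 1 to 3 and 82.5, 58.0 and 43.5 in HFD replicates 1 to 3. The lowest count, 147 reads in Casp11-/- HFD replicate 1, had an exact 95% Poisson interval of 124 to 173 reads, which covers counting error only. This interval is narrow beside the distance between the diets. In Casp11-/- HFD replicate 3, 465 Ighv reads were recovered. With each segment at the floor taken at the commonest length, the floor could hide up to 402 further reads there, a larger allowance than in any other library.

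**Figure D1:**
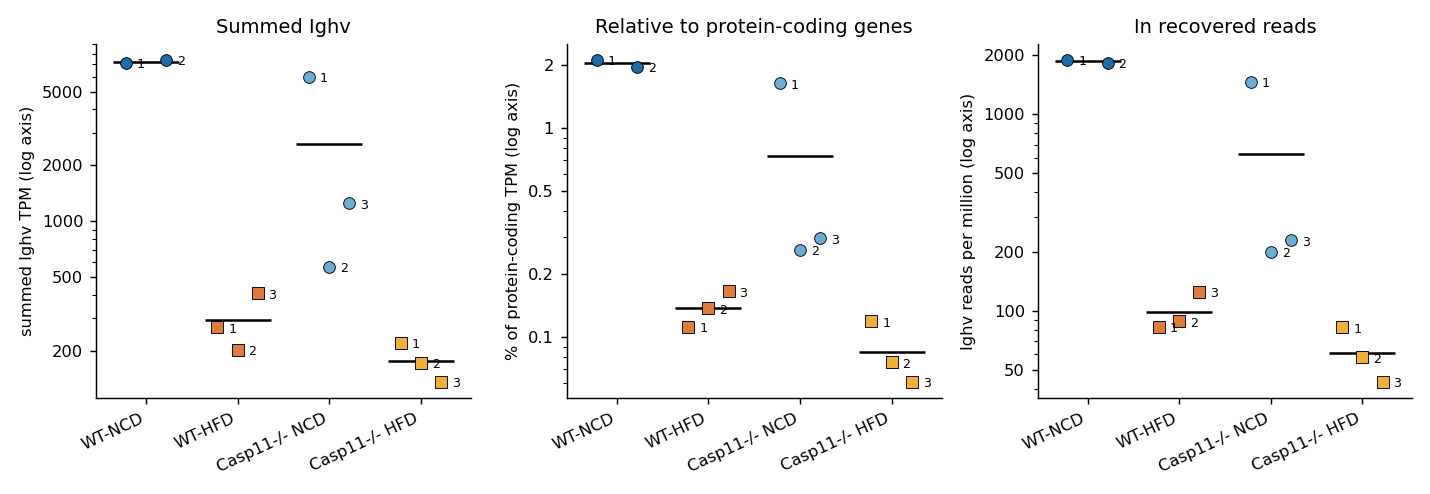
Summed Ighv level in each of the 11 libraries by group, as TPM, as a percentage of protein-coding TPM and as recovered reads scaled by the library total (RPM); all 3 vertical axes are logarithmic. Points are libraries with their replicate numbers and bars are group means. Every NCD library lies above the HFD libraries of its genotype, from 567 to 7385 TPM against 136 to 408 TPM, and Casp11-/- NCD replicates 2 and 3 lie well below replicate 1.

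Of the 183 segments, 66 were above the floor in no library used, 17 in 1 or 2 libraries and 100 in at least 3, and 23 were above it in all 11. Only those 100 were tested. The number above the floor was 104 and 103 in WT-NCD, 62, 59 and 65 in WT-HFD, 99, 78 and 104 in Casp11-/- NCD and 48, 48 and 49 in Casp11-/- HFD. Of the 100 tested, 14 were above the floor in no HFD library and 41 in fewer than 3 HFD libraries, so those 41 passed the filter only with their NCD values, which favours a lower level on HFD. Counts over the tested segments are therefore descriptions. The untested segment with the highest mean on NCD was Ighv6-7, at 8.66 TPM.

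Subgroup 1, with 92 segments the largest here, made up most of the Ighv RNA in every group. Its summed value was 3924 and 4103 TPM in WT-NCD, 153, 105 and 212 TPM in the WT-HFD libraries, 3237, 329 and 669 TPM in Casp11-/- NCD and 130, 94.7 and 78.5 TPM in Casp11-/- HFD. Its part of the summed Ighv value, however, was between 51.6% and 59.1% in all 11 libraries, and the groups overlapped. The level of the subgroup thus followed the sum while its share did not separate the diets.

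Subgroup 2 was the next highest in WT mice on NCD, at 569 and 675 TPM, against 14.7, 17.3 and 24.9 TPM on HFD. Casp11-/- mice had 477, 34.9 and 87.0 TPM on NCD and 11.1, 12.2 and 12.7 TPM on HFD, without overlap. Subgroup 14 had the highest ratio between the diets of the subgroups with 4 or more segments in WT, with means of 426 and 9.76 TPM (43.6-fold). Its means in Casp11-/- mice were 110 and 4.08 TPM (26.9-fold), a ratio that was 9.02 without Casp11-/- NCD replicate 1, when that of subgroup 7 was 9.16.

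Subgroup 8 had the lowest ratio among the subgroups with 4 or more segments. In WT mice it was at 375 and 370 TPM on NCD and 21.7, 14.2 and 53.2 TPM on HFD, and its mean part of the Ighv sum was 5.14% and 9.36%. Casp11-/- mice had 357, 27.5 and 99.8 TPM on NCD and 21.1, 18.7 and 7.19 TPM on HFD, and the mean part was 6.27% and 8.56%. By library, this part overlapped between the diets in Casp11-/- mice.

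The small subgroups behaved less uniformly. Subgroup 11, with 2 segments, was at 2.52 and 1.94 TPM in WT-NCD, and in WT-HFD only replicate 3 had a value (2.35 TPM). In Casp11-/- NCD it was at 9.34 TPM in replicate 1 and 9.76 TPM in replicate 3, while replicate 2 had no value, and in Casp11-/- HFD replicate 2 alone had one (1.17 TPM). Ighv11-2, which held most of this, is a segment known from B-1 cells, a B cell population of the body cavities that makes natural antibody. Ighv12-3, another segment known from B-1 cells, was at 3.03 and 3.41 TPM in WT-NCD, 1.66, 1.13 and 1.01 TPM in the WT-HFD libraries, 5.27, 1.06 and 10.1 TPM in Casp11-/- NCD and 2.01, 1.96 and 1.58 TPM in Casp11-/- HFD. Neither segment passed the limma test in Casp11-/- mice (log2 change of -1.5 ± 0.45 (SE), adjusted p = 0.0933, and -0.88 ± 0.45, adjusted p = 0.199). Ighv16-1, the only segment of subgroup 16, was at the floor in all 11 libraries. Of the 15 subgroups with any value, all HFD libraries were below all NCD libraries in 14 in WT and in 11 in Casp11-/- mice, where 40.3% and 16.4% of all genes tested had no overlap in this direction. These shares are of single genes with floor values kept, so they are not a like background for sums over segments.

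**Figure D2:**
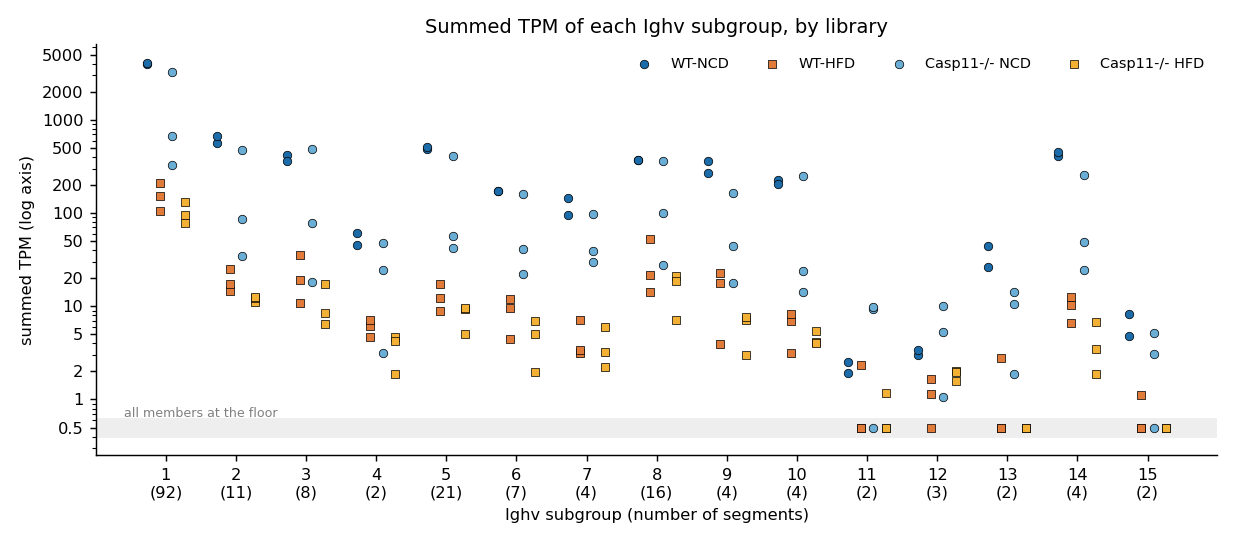
Summed TPM of the 15 Ighv subgroups with any value, by library (vertical axis logarithmic); the number of segments of each subgroup stands in brackets and values with all members at the floor are drawn in the grey band. Subgroup 1 is highest in every group and subgroup 8 has the least distance between the diets among subgroups of 4 or more segments.

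The diet comparison in Casp11-/- mice used 6 libraries that had not led to the choice of the members. Segment values were compared with limma on log2(TPM + 1) in 1 fit over the 11 libraries and the 17950 genes that cleared the same filter. On this scale, changes of segments close to the floor come out too small. On HFD, 36 of the 100 tested segments fell at a Benjamini-Hochberg adjusted p under 0.05 and none rose, while 0.986% of all genes tested fell and 0.117% rose. The log2 change was below 0 in all 100 tested segments, with a median of -2.25 against -0.51 over all genes, and in 94 of 100 after scaling by protein-coding TPM and 92 of 99 after the top 1% of genes by mean were taken out. The share of U3 RNA moved with diet as given above, and its part in these changes was not tested. The HFD libraries lay wholly below the NCD libraries in 62 of the 100, against 16.4% of all genes tested, and in each of the 36 called segments. Of the 100, 41 cleared the filter only with their NCD values, which favours a fall on HFD. A segment at the floor in all 3 Casp11-/- HFD libraries could not rise in TPM, so these counts are descriptions.

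Ighv7-3 had the smallest p-value. It was at 72.2, 25.8 and 32.0 TPM in Casp11-/- NCD and 1.64, 4.79 and 1.01 TPM in Casp11-/- HFD, the last being the floor. The groups were far apart, and the log2 change was -3.68 ± 0.51 (SE, limma, adjusted p = 0.000732). RefSeq types Ighv7-3 as a pseudogene, whereas GENCODE annotates it as a variable gene. In WT mice, it was at 124 and 84.1 TPM on NCD and 3.15, 3.39 and 5.87 TPM on HFD.

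Ighv1-26, the segment with the highest mean on NCD, was at 295, 41.4 and 51.6 TPM in Casp11-/- NCD and 4.69, 12 and 7.90 TPM in Casp11-/- HFD. A choice by this mean, which includes the Casp11-/- NCD libraries, favours a fall on HFD. Ighv1-26 fell by 3.32 on the log2 scale (SE 0.59, limma adjusted p = 0.00763). In WT mice, it was at 359 and 365 TPM on NCD and 12.7, 5.67 and 14.7 TPM on HFD. It was the highest segment in 5 of the 11 libraries, both WT-NCD libraries among them, and 83.8% of its windows of 75 bases were its own.

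Ighv1-76 was at 267, 26.6 and 49.0 TPM in Casp11-/- NCD and 4.69, 4.76 and 4.45 TPM in Casp11-/- HFD, a log2 change of -3.67 ± 0.60 (SE, limma adjusted p = 0.00397). Ighv1-77, its neighbour by name, was at 52.4, 14.7 and 10.1 TPM on NCD and at the floor in all 3 HFD libraries of Casp11-/- mice. Its fitted log2 change of -3.39 ± 0.55 (limma adjusted p = 0.00395) depends on the floor and the added 1. Of the 36 called segments, 6 had all 3 Casp11-/- HFD values at the floor. Others, such as Ighv14-1 and Ighv7-3, had a part of these values there and depend on it as well. In WT mice, Ighv1-77 was at 15.5 and 25 TPM on NCD and 1.01, 2.65 and 4.07 TPM on HFD, below its Casp11-/- NCD replicate 1 value.

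Ighv1-9 was at 135, 14.7 and 40.1 TPM in Casp11-/- NCD and 4.69, 4.2 and 3.59 TPM in Casp11-/- HFD, and fell by 3.11 on the log2 scale (SE 0.56, limma adjusted p = 0.00927). Of the 10 segments with the highest mean on NCD, 7 fell, namely Ighv1-26, Ighv2-2, Ighv1-76, Ighv1-9, Ighv9-3, Ighv1-80 and Ighv1-15. The mean that picked these 10 included the Casp11-/- NCD libraries, which favours a fall on HFD, so this count is a description. Ighv1-81, Ighv3-6 and Ighv8-12 did not pass, and their standard errors (0.72 to 0.85) were above those of the 7 that fell (0.56 to 0.66). The limma adjusted p was 0.0387 for Ighv2-2, 0.0216 for Ighv9-3, 0.0217 for Ighv1-80 and 0.0101 for Ighv1-15.

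Ighv1-81 was at 330, 10.8 and 32.2 TPM in Casp11-/- NCD and 20.8, 14.8 and 1.29 TPM in Casp11-/- HFD. The groups overlapped, and the log2 change of -2.46 ± 0.85 (SE) had a limma adjusted p of 0.122. Ighv1-81 was also the highest segment in Casp11-/- HFD replicates 1 and 2, where it made up 9.41% and 8.60% of the Ighv sum. Ighv3-6 was at 281, 10.8 and 37.2 TPM on NCD and 15.3, 3.61 and 5.85 TPM on HFD in these mice (log2 change of -2.65 ± 0.74, limma adjusted p = 0.0794). Ighv8-12 was at 191, 18.9 and 32.3 TPM on NCD and 8.50, 10.7 and 2.66 TPM on HFD (log2 change of -2.76 ± 0.72, limma adjusted p = 0.0565).

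**Figure D3:**
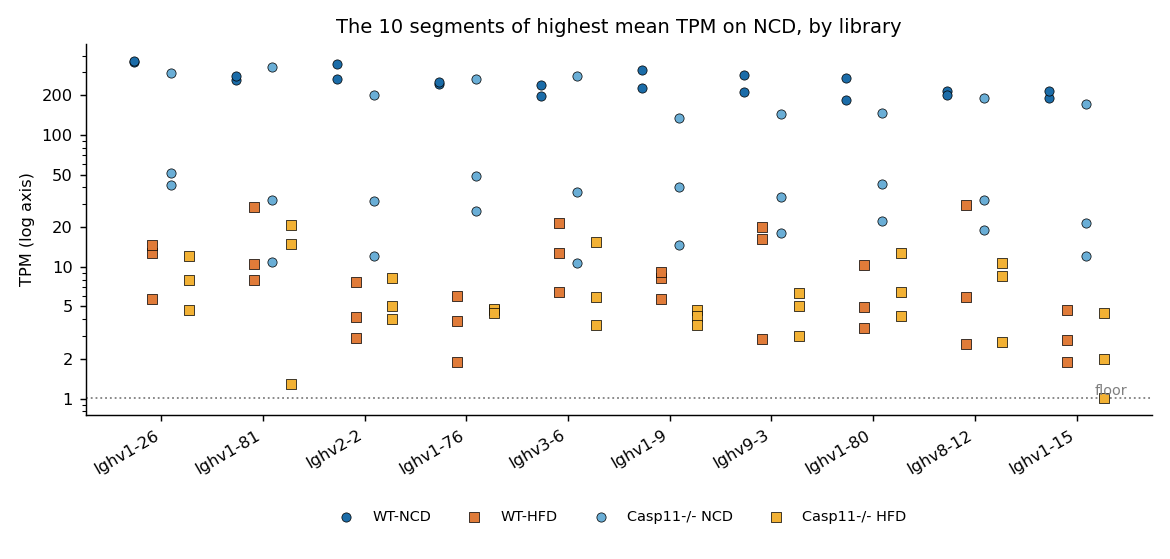
TPM of the 10 Ighv segments with the highest mean on NCD, by library (vertical axis logarithmic, dotted line at the floor of 1.01). The mean that picked them includes the NCD libraries of both genotypes, which favours a distance between the diets. All 10 lie between 185 and 365 TPM in the WT-NCD libraries and at 29.7 TPM or less in every HFD library; Casp11-/- NCD spans 10.8 to 330 TPM.

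The highest segments of the smaller subgroups had values of the same kind. Ighv5-17, highest in subgroup 5, was at 158, 15.9 and 17.2 TPM in Casp11-/- NCD and 6.03, 3.64 and 5.89 TPM in HFD (log2 change of -2.59, limma adjusted p = 0.0386). Ighv6-3, highest in subgroup 6, was at 48.8, 14.8 and 29.1 TPM on NCD and 1.98, 6.88 and 2.96 TPM on HFD (log2 change of -2.67, limma adjusted p = 0.0133). Ighv14-2, highest in subgroup 14, was at 132, 8.64 and 5.72 TPM on NCD and 4.05, 1.01 and 1.86 TPM on HFD, and did not pass (limma adjusted p = 0.0570). The highest segments of subgroups 4, 10, 13 and 15 (Ighv4-1, Ighv10-1, Ighv13-2 and Ighv15-2) did not pass either, with log2 changes of -1.94, -2.93, -1.99 and -0.88 and limma adjusted p of 0.111, 0.0584, 0.0708 and 0.149. Ighv10-1 showed the spread within Casp11-/- NCD, at 133, 2.98 and 17.8 TPM against 1.65, 2.07 and 1.77 TPM on HFD. By subgroup, the called segments were 20 of 51 tested in subgroup 1, 4 of 8 in subgroup 2 and 1 of 6 in subgroup 3. They were 4 of 9 in subgroup 5, 2 of 2 in subgroup 6 and 1 of 2 in subgroup 7. Subgroups 9 and 14 had 1 of 4 and 3 of 4, and the other subgroups 0, including 0 of 6 in subgroup 8. Of all genes tested, 0.986% were called lower in this comparison.

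The 4 segments named by the earlier results can be read in Casp11-/- mice. Ighv1-62-2 was at 14.9, 7.01 and 5.73 TPM on NCD and 1.01, 2.52 and 1.29 TPM on HFD (log2 change of -1.91, limma adjusted p = 0.0491). Ighv14-1 was at 24.5, 3.61 and 8.38 TPM on NCD and 1.01, 1.4 and 1.01 TPM on HFD (log2 change of -2.28, limma adjusted p = 0.0351). Ighv2-9-1 was at 14.8, 3.71 and 4.99 TPM on NCD and 1.01, 1.01 and 1.03 TPM on HFD (log2 change of -1.92, limma adjusted p = 0.0417). These 3 passed without overlap, at adjusted p of 0.0351 to 0.0491. Ighv5-9-1 was at 7.55, 1.91 and 1.32 TPM on NCD and at the floor in all 3 HFD libraries, and did not pass (log2 change of -0.95, limma adjusted p = 0.180). Ighv14-1, Ighv2-9-1 and Ighv5-9-1 cleared the filter only with their NCD values, which favours a fall on HFD.

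The count of called segments rested on single libraries and on the scale. It was 3 of 98 without Casp11-/- NCD replicate 1, where 0.136% of all genes were called lower. It was 88 of 100 without Casp11-/- NCD replicate 2, where 46.1% of all genes were called lower, so the rise was shared by genes at large. It was 22 of 99 without the library labelled Casp11-/- NCD replicate 3 (0.431% of all genes), and 17, 21 and 19 of 100 without Casp11-/- HFD replicates 1, 2 and 3 (0.384%, 0.475% and 0.582% of all genes). With each library scaled by its protein-coding TPM, the median change of all genes moved from -0.51 to -0.05 and 19 segments were called, while all genes called shifted from 177 lower and 21 higher to 131 lower and 266 higher. In RPM of recovered reads 1 segment was called, where 0.731% of all genes were called lower. In an ordinary linear model without a shared spread none was called (60 lower and 0 higher at an unadjusted p under 0.05), against 0.0167% of all genes. Among the 23 segments above the floor in every library, tested with 10145 such genes, all 23 were called lower, against 4.59% of those genes.

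In WT mice, the values that led to the members are given as a description. On HFD, 85 of the 100 tested segments passed the same threshold as lower, where 2.04% of all genes tested did so and 0.134% passed as higher, and 97 segments lay wholly below the NCD libraries, where 40.3% of all genes did so. The median log2 change was -3.75 over the segments and -0.27 over all genes, and -3.15 and 0.29 after scaling by protein-coding TPM. The 10 segments with the highest mean on NCD were at 185 to 365 TPM in WT-NCD. Ighv5-17 had a fitted change of -5.90, from 152 and 174 TPM to 2.76, 1.13 and 1.57 TPM. Ighv2-2, the highest of subgroup 2, was at 267 and 346 TPM on NCD and 4.18, 2.86 and 7.63 TPM on HFD. Ighv1-4 was at 116 and 63.4 TPM on NCD, and on HFD only replicate 2, at 3.40 TPM, was above the floor.

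The diet differences of both genotypes can be set side by side, since they share no library. The log2 change was lower in WT than in Casp11-/- mice in 96 of the 100 tested segments. Across segments the Pearson correlation of the changes was 0.79 and the Spearman correlation 0.76 (n = 100 segments). The points share the libraries, and segments with low values have small changes in both genotypes by construction of the scale. All 36 segments called in Casp11-/- mice were also past the threshold in WT mice, as were 49 of the 64 that were not called.

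**Figure D4:**
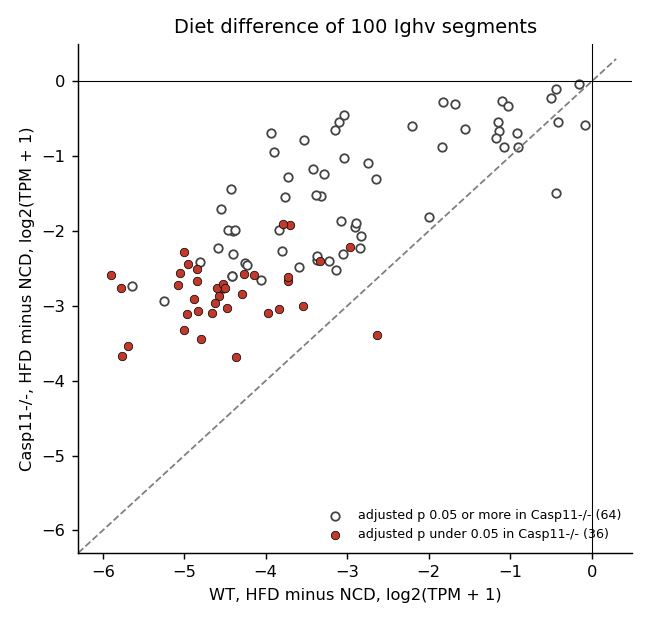
Difference between HFD and NCD in log2(TPM + 1) for the 100 tested Ighv segments, in WT mice (horizontal) and Casp11-/- mice (vertical); the dashed line marks equal differences and filled points the 36 segments with a limma adjusted p under 0.05 in Casp11-/- mice. In this unit all points lie below 0 on both axes (96 of 100 for WT and 94 of 100 for Casp11-/- mice after scaling by protein-coding TPM), and 96 lie above the dashed line. Of the 100, 41 cleared the filter only with their NCD values, which favours changes below 0.

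The difference between the genotypes in the diet change was given by the interaction term of the same fit. This term subtracts the WT change that led to the choice of the members, which favours values above 0, so it is a description. No segment passed (limma; 40 higher and 0 lower at an unadjusted p under 0.05, and 0 in an ordinary linear model), and 0.00557% of all genes passed as higher and 0.0% as lower. The interaction term was above 0 in 96 of the 100 segments, with a median of 1.67. Without Casp11-/- NCD replicate 1, 12 of 98 segments passed (0.113% of all genes), and without WT-NCD replicate 1, 1 of 98 passed (0.0337%).

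The genotypes on NCD share the WT-NCD libraries with the comparison that led to the members, which favours lower values in Casp11-/- mice, so these values are a description too. On NCD, 5 of the 100 segments passed the threshold as lower in Casp11-/- than in WT mice in limma and none as higher, where 0.0557% of all genes tested were lower. The log2 difference was below 0 in 94 of the 100, with a median of -2.01, against 0.08 over all genes. The 5 were Ighv3-4, Ighv9-2, Ighv5-9-1, Ighv2-6-8 and Ighv9-1, none of which is among the 10 highest on NCD, and Ighv5-9-1 is among the 4 that earlier results named. In each of them Casp11-/- NCD replicate 1 was also below both WT-NCD libraries, in contrast to segments such as Ighv1-81.

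On NCD, Ighv3-4 was at 20.8 and 13.9 TPM in WT and 2.03, 1.01 and 3.04 TPM in Casp11-/- mice (log2 difference of -2.64 ± 0.42, SE). Ighv9-2 was at 10.6 and 24.5 TPM in WT-NCD libraries and 2.49, 1.01 and 2.59 TPM in Casp11-/- NCD (-2.56 ± 0.41). Ighv5-9-1 was at 34.1 and 25.7 TPM in WT-NCD, above its Casp11-/- NCD values of 7.55 TPM and less (-2.98 ± 0.50). Ighv2-6-8 and Ighv9-1 differed by -2.49 and -3.0. The count was 64 of 98 without Casp11-/- NCD replicate 1 (0.956% of all genes). It was 2 or 3 without WT-NCD replicate 2, WT-HFD replicate 2 or the library labelled Casp11-/- NCD replicate 3 (0.0281%, 0.0335% and 0.0291%). It was 3 without both libraries with Casp4 in the WT range (0.0351%). It was 0 in the fit on the 2 groups alone and in RPM of recovered reads (76 and 60 segments lower, with 0 higher, at an unadjusted p under 0.05).

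On HFD, where the WT-HFD libraries had also led to the members, no segment differed between Casp11-/- and WT mice in limma (3 lower and 0 higher at an unadjusted p under 0.05, and 0 called in an ordinary linear model). The median log2 difference was -0.15, with values from -1.90 to 1.15, and 0.0% of all genes passed in either direction. The summed value was 293 ± 105 TPM (SD, n = 3) in WT-HFD and 176 ± 42 TPM (n = 3) in Casp11-/- HFD, and the groups overlapped.

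The order of the segments was alike in the NCD libraries and less so on HFD. Over all 183 segments, the Spearman correlation between pairs of libraries was 0.859 to 0.976 between NCD libraries (10 pairs), 0.668 to 0.816 between the diets (30 pairs) and 0.526 to 0.735 between HFD libraries (15 pairs). The points share segments at the floor, and HFD libraries held few Ighv reads, which lowers such a correlation. The 10 highest segments of each library held 33.1% to 38.5% of the Ighv sum on NCD and 39.1% to 49.5% on HFD. The highest segment differed between HFD libraries and was Ighv9-3, Ighv1-39 and Ighv8-12 in WT-HFD replicates 1 to 3 and Ighv1-81, Ighv1-81 and Ighv1-26 in Casp11-/- HFD replicates 1 to 3. Ighv1-39 was at 8.29, 11 and 2.82 TPM in WT-HFD but at the floor in all 3 Casp11-/- HFD libraries.

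With each library thinned to 147 Ighv reads, an expected 57.0 and 55.8 segments had a read in WT-NCD and 53.0, 49.5 and 50.2 in WT-HFD. The expected number was 55.4, 53.6 and 59.9 in Casp11-/- NCD and 48.0, 43.1 and 44.6 in Casp11-/- HFD. The diets did not overlap within a genotype, but at the commonest segment length the floor hid reads of rare segments in 7 of the 11 libraries. This lowers the number there.

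The segments were also grouped by position. The Ighv locus lies on chromosome 12 (GRCm38), where the members span 113572929 to 116009954, and the D segments lie beyond its low-coordinate end. The 46 segments nearest that end held 22.1% and 22.9% of the Ighv sum in WT-NCD and 14.1% to 23.5% in WT-HFD. The 46 farthest held 30.5% and 31.3% in WT-NCD and 29.2% to 40.5% in WT-HFD, and 35.0% to 36% and 35.6% to 48.6% in Casp11-/- mice on NCD and HFD. The median log2 change in Casp11-/- mice was -2.17 in the nearest and -2.30 in the farthest of these sets.

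By type, 103 of the 120 variable segments and 14 of the 63 pseudogenes were above the floor in at least 1 library. The variable segments held 94.4% to 98.5% of the Ighv sum over all libraries. Of the 7 pseudogenes that were tested, Ighv7-3 and Ighv7-1 had the highest means on NCD (67.5 and 13.6 TPM), and both are variable genes in GENCODE. The other 5 had means of at most 3.75 TPM.

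The segments of the kappa light chain, the partner of the heavy chain in most mouse antibodies, had a like order of the libraries. The 162 Igkv segments summed to 20548 and 19342 TPM in WT-NCD, 912, 553 and 1291 TPM in the WT-HFD libraries, 18150, 1687 and 3206 TPM in Casp11-/- NCD and 627, 501 and 469 TPM in Casp11-/- HFD. The ratio of Ighv to Igkv was 0.290 to 0.390 over all 11 libraries and overlapped between all groups, while the sums themselves ranged 54.3-fold for Ighv and 43.8-fold for Igkv. Of the 102 Igkv segments tested, 57 fell in Casp11-/- mice on HFD (0.986% of all genes tested) and 0 rose. The median log2 change of the 102 was -2.68.

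The heavy constant regions to which Ighv exons are spliced gave a ratio of 0.355 and 0.398 in WT-NCD, 0.259 to 0.438 in WT-HFD, 0.259 to 0.313 in Casp11-/- NCD and 0.202 to 0.305 in Casp11-/- HFD. The diets overlapped in each genotype, while the WT-NCD libraries lay above all Casp11-/- libraries. Igha, the constant region of IgA, was at 13960 and 17151 TPM in the WT-NCD libraries and 179, 112 and 431 TPM in WT-HFD. It was at 13354, 1055 and 695 TPM in Casp11-/- NCD and 156, 54.8 and 24.4 TPM in Casp11-/- HFD, and its log2 change of -5.14 ± 0.83 (SE, limma adjusted p = 0.00395) was past the threshold. Ighm, the constant region of IgM, was at 3531, 680 and 2678 TPM in Casp11-/- NCD and 358, 476 and 467 TPM in Casp11-/- HFD, and did not pass (-2.11 ± 0.62, limma adjusted p = 0.0925). Of the 7 heavy constant regions tested, 2 fell (0.986% of all genes tested) and 0 rose in Casp11-/- mice.

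The Ighv sum was set against genes of plasma cells and of B cells at large. The 10 plasma cell genes (Jchain, Mzb1, Derl3 and others) summed to 3353 and 3025 TPM in WT-NCD, 215, 172 and 322 TPM in the WT-HFD libraries, 3136, 377 and 580 TPM in Casp11-/- NCD and 175, 160 and 123 TPM in Casp11-/- HFD. The ratio of Ighv to this sum was 1.5 to 2.44 on NCD and 1.08 to 1.27 on HFD, without overlap. This ratio depends on the genes listed, whose log2 changes in Casp11-/- mice ran from -3.64 for Jchain to -0.54 for Sdc1. Xbp1, with a change of -1.24, held 61.6, 83.1 and 44.4 TPM of the sum in Casp11-/- HFD replicates 1 to 3. Of these 10 genes, 4 fell in Casp11-/- mice on HFD (0.986% of all genes) and 0 rose, with a median log2 change of -1.84. Jchain, which joins the units of secreted IgA and IgM, was among them, at 2327, 210 and 214 TPM on NCD and 68.7, 34.6 and 21.1 TPM on HFD.

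The 20 B cell identity genes (Cd79a, Pax5 and others) summed to 2395 and 2167 TPM in WT-NCD, to 464, 260 and 569 TPM in the WT-HFD libraries, to 2746, 755 and 3353 TPM in Casp11-/- NCD and 335, 350 and 519 TPM in Casp11-/- HFD. The ratio of Ighv to this sum was 2.97 and 3.41 in WT-NCD and 0.578 to 0.782 in WT-HFD. It was 2.18, 0.751 and 0.373 in Casp11-/- NCD and 0.658, 0.493 and 0.262 in Casp11-/- HFD. The library labelled Casp11-/- NCD replicate 3 stood apart here, with the highest B cell sum of all libraries and an Ighv sum well below that of replicate 1. Of the 20 B cell genes, 11 fell in Casp11-/- mice on HFD (0.986% of all genes tested) and 0 rose. The median log2 change of the 20 was -2.20. Over all 11 libraries, the ratio to the plasma cell sum ranged 2.27-fold and the ratio to the B cell sum 13.0-fold.

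**Figure D5:**
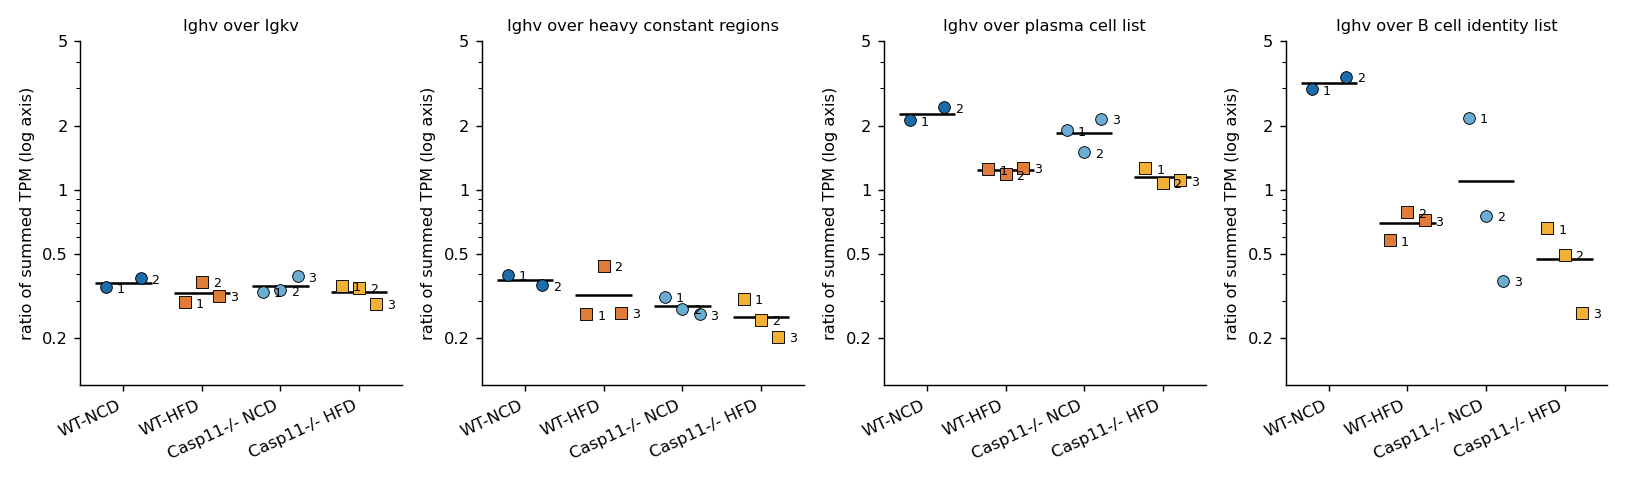
Ratio of the summed Ighv TPM to the sums of the Igkv segments, the heavy constant regions, the plasma cell list and the B cell identity list, by library (vertical axes logarithmic, bars are group means). The first ratio stays between 0.290 and 0.390 in all 11 libraries, and the last runs from 0.262 to 3.41.

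The 14 genes of V(D)J recombination and of pre-B cells differed in level and summed to 13.4 to 76.0 TPM. Prkdc was at 3.03 to 23.7 TPM and Dclre1c at 2.57 to 13.9 TPM over the 11 libraries. Rag2, Igll1, Vpreb1 and Vpreb2 were at the floor in all 11 libraries, and Rag1, which cuts at the recombination signals with Rag2, was above it only in the library labelled Casp11-/- NCD replicate 3 (2.55 TPM). Of the 8 tested genes of this list 0 changed in Casp11-/- mice in limma, and the median log2 change was -0.66.

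Markers of other cell types moved with diet as well. The Kupffer cell genes Clec4f, Vsig4 and Cd5l were at 4.01 to 12.1 TPM in the NCD libraries and 24.8 to 186 TPM in the HFD libraries. Of the 12 Kupffer cell and macrophage genes, 5 rose in Casp11-/- mice (0.117% of all genes tested), with 0 called lower. Lyz2, Cd68 and Csf1r of this list had log2 changes below 0 in these mice (-1.31, -0.56 and -0.46). All its other genes were above 0, Adgre1 least at 0.22. The summed level of the 12 genes ranged from 375 to 3926 TPM on NCD and 718 to 2006 TPM on HFD, with Lyz2 alone at 293 to 3500 TPM over all libraries, and Marco was at the floor in all 5 NCD libraries. The 12 T cell genes summed to 159 to 644 TPM on NCD and 91.7 to 270 TPM on HFD, and the 7 NK cell genes to 222 to 451 and 66.3 to 122 TPM, with 0 called in Casp11-/- mice in either list in limma. The 8 hepatocyte genes summed to 6599 to 23464 TPM on NCD and 9197 to 18520 TPM on HFD, the 7 neutrophil genes to 246 to 876 and 101 to 4059 TPM, and the 6 sinusoidal endothelial genes to 139 to 496 and 232 to 1218 TPM. The part of the cell make-up of the fraction in the Ighv values was not tested.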

How the data were processed

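Total RNA of the liver immune cell fraction had been sequenced by the authors as stranded random-primed libraries, with single-end reads of 75 bases aligned to mm10 (GRCm38.p6) with STAR and TPM computed in Qlucore Omics Explorer. The deposited score values are these TPM with low values raised to a floor of 1.01. In the 11 libraries used, 54.0% to 68.3% of genes were at the floor. Reads were recovered from the steps of the deposited values, taken as reads plus 0.5, scaled by library and gene length. Of the values up to 30 reads, 99.7% to 100% were whole within 0.02 reads. Gene lengths for this step were those implied by WT-NCD replicate 3, which entered no comparison except the refit with all 12 libraries.

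Members are genes whose names begin with Ighv. The members and gene lists were chosen with earlier results of these data known. The main test was that of limma 3.58.1 (R 4.3.3) with a mean-variance trend, applied to log2(TPM + 1), with 1 shared spread for the 4 groups, two-sided tests and Benjamini-Hochberg adjustment over the 17950 genes that exceeded the floor in 3 libraries or more. The 5 comparisons were HFD with NCD in each genotype, the genotypes on each diet, and the interaction. The text names the 10 segments highest on NCD, the highest of each subgroup and of each library, the 5 of smallest p in each direction per comparison, the 4 named by earlier results and genes of the lists. Ighv1-71, Ighv1-72, Ighv1-62-3, Ighv6-7 and Ighv7-1 were chosen after their values were seen. Light chain constant regions (4 genes) were a further list, of which 3 fell on HFD in Casp11-/- mice (0.986% of all genes) and 0 rose. Types came from RefSeq (39350 genes matched) and sequences from GENCODE vM21. The fit and the recovery of reads were tested on simulated data. Tables were handled in Python 3.11.15 (numpy 2.4.6, pandas 2.3.3), exact intervals came from SciPy 1.17.1, and plots from matplotlib 3.10.9.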

Additional observations from a re-analysis of the deposited data

How the results depend on the processing

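The count of Ighv segments called on HFD in Casp11-/- mice was 36. It was 55 with a pseudocount of 0.01 (1.63% of all genes lower, against 0.986% in the main fit). The count was 61 of 83 with the spread from the groups compared (1.68%) and 63 with the replicate block (5.97%). It was 23 of 23 with genes above the floor in every library (4.59%) and 19 with protein-coding genes rescaled (0.73%). After the top 1% of genes by mean were taken out it was 18 (0.73%), and in RPM of recovered reads 1 (0.731%). It was 0 with all 12 libraries, which adds the library without reads (0.0% of all genes lower). The count was also 0 with genes above the floor in at least 1 library (0.00467%) and in an ordinary linear model (0.0167%). In these 3 settings 63, 69 and 60 segments were lower, and 0 higher, at an unadjusted p under 0.05 in limma or that model. Leaving out 1 library gave 3 (0.136% of all genes lower) to 88 (46.1%). For WT mice the count of 85 became 16, 28 and 1 under those 3 settings (0.103%, 0.388% and 0.0557% of all genes lower). It became 23 of 23 with genes above the floor in every library (2.85%) and 37 in RPM of recovered reads (1.06%). For the genotypes on NCD the count of 5 became 0 with all 12 libraries and with genes above the floor in at least 1 or in every library. It also became 0 with the spread from the groups compared, in an ordinary linear model and in RPM of recovered reads. In the order given, 61, 64, 22, 76, 46 and 60 were lower at an unadjusted p under 0.05. The count was 2 after the top 1% of genes by mean were taken out (0.0228% of all genes lower). It was 3 without both libraries with Casp4 in the WT range (0.0351%). Leaving out 1 library gave 2 to 64. For the genotypes on HFD 1 segment was called lower with the spread from the groups compared (0.0505% of all genes lower). For the interaction, leaving out 1 library gave 0 to 12. The ratio of the summed Ighv share in WT mice, 24.7, was 14.8 over protein-coding TPM, 13.2 without U3 and 7SL RNAs and 17.3 in recovered reads over protein-coding reads. The cause of these changes was not tested.

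No named segment changed direction under the alternatives run for the diet comparison in Casp11-/- mice (31 segments) or the genotypes on NCD (5 segments). In the former, 119 of the refits lost a call and 62 gained one. Same-numbered libraries of different groups had deviations that correlated at -0.33 to 0.47, over 0.1 in 8 of 15 pairs. Of 11 libraries, 6 correlated best with a library of their own number, and the 3 pairs of replicate 3 correlated at 0.25 to 0.47. The main fit did not pair the libraries by number, and these values do not decide whether the numbers pair them. The replicate block moved no other count of segments by over 1.5 times, but raised all genes lower in WT mice from 2.04% to 6.04%. Depth limits what can be said of rare segments on HFD, where 147 to 646 Ighv reads were recovered per library. The recovered reads, both left-out Casp4 libraries and the read-based ratios were chosen after seeing the data.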

Other observations

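WT-NCD replicate 3 entered no comparison except the refit with all 12 libraries, and its values are given here. Its 183 Ighv segments ranged from 29.1 to 48.0 TPM, and 77 of them had the same value of 45.26 TPM. In this library, value times RefSeq length was the same number, within 0.1%, in 1330 of 1330 snoRNA genes, 1228 of 1228 miRNA genes and 993 of 993 snRNA genes, and in 150 of the 183 Ighv segments. Rn7sk, at up to 195531 TPM in another library, had the same product. Its Ighv sum of 8028 TPM, 0.802% of the total, was thus the total of such values over the segments.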
